A study of Mus musculus with 19 samples.

Results

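The subject is the difference between mice with testes and mice with ovaries when both have XX sex chromosomes, followed over the autosomal genes of the spleen. The genes were taken by a threshold on level: an RPKM (the read count of a gene scaled by its length and by library size) of at least 0.5 in at least 4 of the 10 XX mice, which 12796 of the 23975 autosomal genes listed passed. The deposited table lists 27179 genes in 19 mice. In the FCG model (4 core genotypes), the Y chromosome lacks Sry and an autosomal transgene supplies it, so that the gonad is inherited apart from the sex chromosomes. Males with the transgene Tg(Sry)2Ei and the deletion allele dl1Rlb of Sry were mated with C57BL/6J females. XXM mice (5) carry the transgene and have testes, and XXF mice (5) lack it and have ovaries. XYM mice (5, with the transgene) and XYF mice (4, without it) repeat the contrast on XY sex chromosomes and are used here for comparison. They also enter the linear model behind every call below, in which the 4 groups share a common estimate of the spread. All 4 groups were immunized intraperitoneally with heat-killed Streptococcus pneumoniae (HKSP, strain R36A), and spleens were taken 1 week later, when red cells were lysed and RNA of the remaining splenocytes was sequenced from 1 library per mouse. Ages are not given. Gonad and transgene go together in these groups and cannot be told apart.

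A spleen suspension holds B cells, T cells, natural killer (NK) cells, dendritic cells, macrophages, granulocytes and remaining red cell precursors. Testes release mainly testosterone and ovaries mainly estradiol and progesterone, and receptors for these steroids are found in lymphoid and myeloid cells and in the stroma of thymus and bone marrow. Pneumococcal cell wall and polysaccharide antigens raise antibody largely without T cell help, in mice often of the IgM class and the IgG3 subclass.

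Depth, as the library size behind each deposited RPKM, was 16703648, 15444883, 14595054, 17391536 and 17644855 reads in XXF mice F1 to F5. In XXM mice 2, 5, 6, 7 and 8 it was 12119957, 16114745, 16156083, 17490493 and 18099717 reads. Values per mouse are given below in this order of mice, as log2(RPKM + 1) unless another scale is named. Reads on Sry numbered 0 in each XXF mouse and 12, 43, 59, 57 and 43 in the XXM mice, so the transgene was transcribed in each spleen that should carry it. Of tissues next to the spleen, 12 pancreas genes summed to RPKM values of 0.323 to 3.81 per mouse, with Ins1 and Ins2 at 0. The 8 fat genes summed to 5.38 to 9.81, most of it Lpl at 4.17 to 7.76, while Cidec, Lep and Plin1 were at 0. Pearson's r between the log2 values of 2 mice ran from 0.963 to 0.990 within groups and from 0.948 to 0.976 between them. On the first principal component (32.0% of the variance) the XXM mice had scores from 2.66 to 34.2 and the XXF mice from -32.0 to -0.987, while scores on the second (31.3%) overlapped.

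T cell genes were lower, and several IgG constant, B cell and dendritic cell genes were higher, in XX mice with testes than in XX mice with ovaries. Of the 12796 autosomal genes, 395 (3.09%) were called lower and 155 (1.21%) higher in XXM than in XXF mice, 550 (4.30%) together. A call needs a Benjamini-Hochberg adjusted p under 0.1 from limma, a linear model fitted across all genes, and a difference of over 1.5-fold. The 5 XXM values lay entirely below the 5 XXF values for 332 of the 395 and entirely above them for 116 of the 155, against 689 (5.38%) and 605 (4.73%) of all autosomal genes tested. For such genes the exact two-sided permutation test over mice gives p = 0.00794, the smallest value that 252 arrangements allow. Of the 395 lower genes 168 differed over 2-fold and 14 over 4-fold, and of the 155 higher genes 24 and 5. The median size of a called log2 difference was 0.89 among lower and 0.70 among higher genes, and the median over all autosomal genes was -0.01. The fit takes in the XY mice, which share in its estimate of the spread, and with the XX mice fitted alone 184 genes were higher and 476 lower. The higher count was 241 with a pseudocount of 0.1 and 247 with limma-voom on reads, and without the fold threshold the counts are 606 higher and 646 lower. Library numbers run in blocks by group, an unexplained word stands in the sample titles of XXM mice and of no other group, and no batch is recorded, so handling and gonad cannot be told apart.

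**Figure D1:**
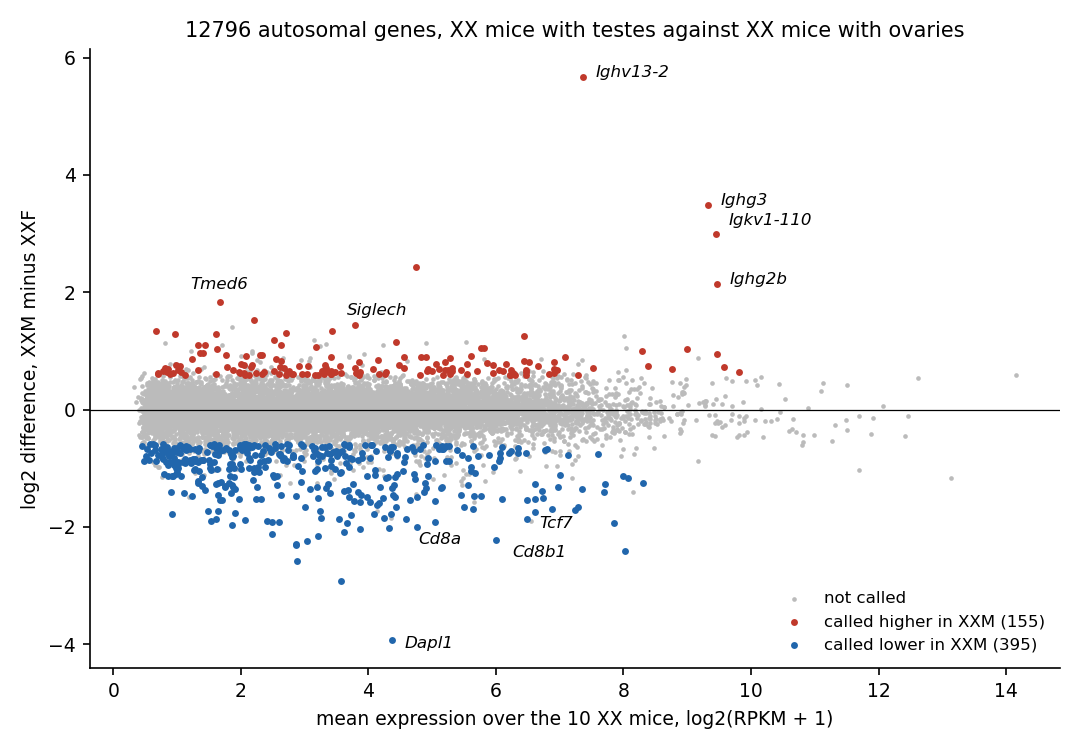
Each point is 1 of 12796 autosomal genes, with its mean log2(RPKM + 1) over the 10 XX mice on the x axis and the log2 difference XXM minus XXF on the y axis; red and blue mark the 155 and 395 genes called higher and lower. Dapl1 (-3.92) and the CD8 genes lie at the lower edge, and Ighv13-2 (5.66) and Ighg3 (3.48) at the upper edge.

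Nearly the whole T cell marker list fell. Of its 20 genes, 19 were called lower and 0 higher in XXM mice (0 higher also at an unadjusted p under 0.05 and with limma-voom), with a median log2 difference of -1.40 beside -0.01 for all autosomal genes. Cd8b1 (Entrez Gene 12526, chromosome 6), the beta chain of the CD8 coreceptor that binds MHC class I, was at 7.05, 7.25, 7.22, 6.94 and 7.12 in XXF and at 5.41, 5.35, 4.54, 4.23 and 4.90 in XXM mice. Cd8a (Entrez Gene 12525, chromosome 6), its alpha chain, was at 6.0, 6.10, 5.90, 5.93 and 6.08 against 4.29, 4.31, 3.88, 3.77 and 4.22. For both chains the highest XXM mouse stayed well under the lowest XXF mouse. The log2 differences were -2.23, SE 0.25, adjusted p = 1.89e-05 for Cd8b1 and -1.91, SE 0.20, adjusted p = 7.88e-06 for Cd8a. Cd3d and Cd3g encode signalling chains of the T cell receptor complex. Cd3d was at 6.96, 7.99, 7.73, 7.23 and 7.54 in XXF mice and at 6.54, 6.28, 5.44, 5.33 and 5.11 in XXM mice, where mice 2 and 5 stood above the other 3 and close to XXF F1, without overlap. Its log2 difference was -1.75, SE 0.35, adjusted p = 0.00441, and that of Cd3g was -1.72, SE 0.26, adjusted p = 0.000484. Cd4, whose product binds MHC class II, was among the 19, and the gene that was not called was Cd2, an adhesion receptor that mouse B cells carry as well; both were chosen for naming after their values were seen. Cd2 was the most abundant gene of the list, with RPKM values of 258, 341, 295, 262 and 303 in XXF and 259, 308, 343, 282 and 267 in XXM mice.

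Summed over the 20 markers, RPKM was 2286, 3285, 3016, 2392 and 2929 in XXF mice and 1260, 1348, 1293, 999 and 966 in XXM mice. Every XXM sum was below every XXF sum, and the ratio of the group means was 0.422. In a bulk sample, fewer cells of a type and less RNA per cell cannot be told apart. No T cell marker was at 0.

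The list of naive T cell genes held the gene with the most negative difference of the 395. Dapl1 (Entrez Gene 76747, chromosome 2), a relative of the death-associated protein Dap that is abundant in resting T cells, was at 6.02, 6.60, 6.44, 6.25 and 6.39 in XXF and at 3.25, 2.35, 2.19, 2.43 and 1.85 in XXM mice. Its XXM values lay between 1.85 and 3.25, all below the lowest XXF value, with mouse 2 the highest. The group mean RPKM was 80.7 in XXF and 4.63 in XXM mice, and the log2 difference was -3.92, SE 0.34, adjusted p = 1.46e-06. Tcf7 and Lef1 encode related HMG-box transcription factors that keep T cells in a resting, self-renewing state and bind DNA with the core CTTTGA. Lef1 was at 5.55, 5.47, 5.42, 5.43 and 5.76 in XXF and 3.23, 3.53, 4.02, 3.78 and 3.71 in XXM mice (log2 difference -1.87, SE 0.20, adjusted p = 1.18e-05). Tcf7 was at 7.71, 7.29, 6.97, 7.52 and 7.59 and 5.22, 5.66, 5.60, 5.61 and 5.65 (log2 difference -1.87, SE 0.23, adjusted p = 3.96e-05), and for neither gene did the groups overlap. Actn1, an actin crosslinker, was also lower (-1.56, SE 0.17, adjusted p = 1.28e-05). Of the 11 genes in the list, 6 were called lower and 0 higher, with a median of -1.28; Il7r, the receptor for the survival cytokine interleukin 7, and Igfbp4, an insulin-like growth factor binding protein, are the others of the 6 and were chosen for naming after their values were seen. No member had an unadjusted p under 0.05 in the other direction, nor a higher call with limma-voom. The list's most abundant gene was Klf2, which is not confined to T cells, and its summed RPKM was 1294, 1307, 1305, 1320 and 1493 in XXF and 949, 912, 895, 873 and 868 in XXM mice.

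**Figure D2:**
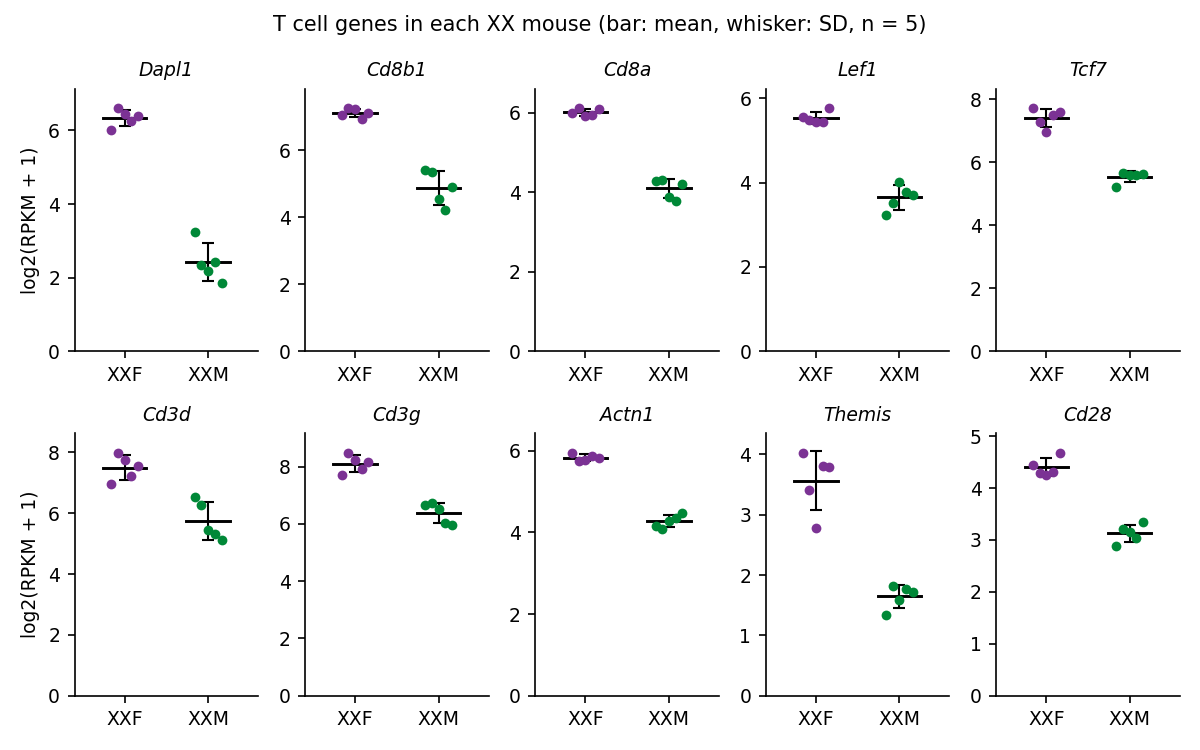
Points are mice, with log2(RPKM + 1) on the y axis for 10 T cell genes in 5 XXF and 5 XXM mice, and bars and whiskers give mean and SD. Every XXM mouse lies below every XXF mouse in each panel, and the gap is widest for Dapl1.

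The variable genes of the T cell receptor, which are joined to constant genes as each T cell forms its receptor, moved the same way where they were called. Of 152 listed, 87 passed the filter, and 57 of these were called lower and 0 higher (0 higher also at an unadjusted p under 0.05 and with limma-voom). Their median was -0.91, or -1.68 with a pseudocount of 0.1, since many have few reads. Trbv13-2, the most abundant, was at 5.67, 5.89, 5.50, 5.76 and 6.02 in XXF and 3.48, 3.89, 3.74, 4.0 and 3.70 in XXM mice, a log2 difference of -2.0, SE 0.20, adjusted p = 4.82e-06 with no overlap. Trbv12-2, Trbv4 and Trbv13-1 had log2 differences of -2.09, -2.04 and -2.03. Joining genes were grouped after values were seen: of 65 tested, 17 were called lower and 0 higher (28 lower and 1 higher at an unadjusted p under 0.05, 14 lower with limma-voom), with a median of -0.84. Of these, 13 belong to the beta chain, with 10 called lower and a median of -1.54. Trbj2-5 had a difference of -2.92 and Trbj2-2 of -2.59, the latter with 2 XXM mice at 0. Variable, joining, diversity and constant genes of all T cell receptor loci make up 79 of the 395 lower and 0 of the 155 higher genes, and 162 of the 12796 genes tested (1.27%). At the gamma locus 0 of 9 genes were called (3 lower and 0 higher at an unadjusted p under 0.05, 0 with limma-voom). Chromosome 14, which carries the alpha and delta loci, had 56 of 549 genes called lower (10.2%), and 46 of the 56 were receptor genes; of its other genes 2.30% were lower. On chromosome 6, with the beta locus, 50 of 786 were lower, 33 of them receptor genes. Summed RPKM of the variable genes was 654, 700, 536, 675 and 755 in XXF and 187, 248, 213, 225 and 160 in XXM mice. These genes are close copies, and the handling of reads that fit more than 1 copy is unknown.

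Among the other genes with the largest falls, several are known from T cells. Themis, a thymocyte protein needed for positive selection of T cells in the thymus, was at 4.03, 3.41, 2.78, 3.80 and 3.79 in XXF and 1.34, 1.82, 1.59, 1.77 and 1.71 in XXM mice. The lowest XXF mouse, F3, still lay above all XXM mice (log2 difference -1.92, SE 0.26, adjusted p = 0.000121). Vipr1, a receptor for vasoactive intestinal peptide, was at 3.34, 3.49, 3.34, 3.41 and 3.64 and 1.55, 1.44, 1.64, 1.38 and 1.59, with little spread in either group (log2 difference -1.92, SE 0.15, adjusted p = 4.38e-07). Art2b, an ADP-ribosyltransferase on the T cell surface, was lower (-2.31, SE 0.29, adjusted p = 5.67e-05). Ubd, a ubiquitin-like modifier induced by interferon gamma and tumor necrosis factor, was lower as well (-2.29, SE 0.33, adjusted p = 0.00026), and so was Tdrp, first described in testis development (-2.15, SE 0.23, adjusted p = 1.18e-05). Bambi-ps1, a pseudogene of a decoy receptor of the TGF-beta family, had a difference of -2.13, and Snord22, a small nucleolar RNA, of -2.42. None of these groups overlapped, and none of these calls was lost when a mouse was left out.

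Als2cl, a relative of the guanine nucleotide exchange factor alsin, and Tmie, a membrane protein known from hair cells of the inner ear, are neighbours that start on opposite strands and run apart. Als2cl was at 4.17, 4.04, 3.64, 4.39 and 4.54 in XXF and 1.69, 1.82, 2.25, 2.03 and 1.77 in XXM mice, and Tmie at 2.60, 2.74, 2.56, 2.92 and 3.40 and 0.66, 1.15, 0.94, 0.73 and 0.88. Neither gene's groups overlapped, and XXF F5 was the highest mouse for both. Their log2 differences were -2.25, SE 0.22, adjusted p = 3.8e-06 and -1.97, SE 0.19, adjusted p = 3.8e-06. The start sites used for their promoter windows are 101 bases apart, and the listed span of Als2cl begins between them, at 110880120. The window of Als2cl holds the start sites of both genes, which is why it is printed. It is chr9:110879924-110880223 on the + strand of GRCm38.p6, from RefSeq, 5′ to 3′, with the bases between the start sites used in capitals.
Als2cl and Tmie: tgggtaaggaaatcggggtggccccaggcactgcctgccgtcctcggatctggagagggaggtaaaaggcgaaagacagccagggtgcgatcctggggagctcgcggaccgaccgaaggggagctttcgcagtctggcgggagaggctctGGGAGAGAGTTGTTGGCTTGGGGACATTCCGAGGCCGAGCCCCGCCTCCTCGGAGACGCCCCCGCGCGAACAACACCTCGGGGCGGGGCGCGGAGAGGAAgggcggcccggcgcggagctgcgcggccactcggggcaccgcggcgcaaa

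Promoters of genes that moved together were searched for the letters of 2 motifs, chosen after values were seen. AGAACA, which reads TGTTCT on the other strand, is a half-site of the androgen and glucocorticoid receptors. CTTTGA, which reads TCAAAG on the other strand, is the core bound by Tcf7 and Lef1. The windows run from 250 bases before to 50 after a start site in GRCm38.p6 and come from RefSeq, which held 9605 of the 12796 genes. AGAACA stood in 12.5% of all 9605 promoters, in 17% of the 106 of higher genes and in 19.1% of the 235 of lower genes. CTTTGA stood in 12%, 12.3% and 19.6% of the same sets. A match is only a run of letters in a window, and no share was tested. No rule set which promoters are shown, so the shares above, not the examples, give how often the motifs occur. Shown are Cd8a, Cd3d and Dapl1 for the lower T cell genes, and Tmed6 and Flt3 for higher genes described below, with matches to either motif in capitals. Their windows are chr6:71373177-71373476 (+ strand, 1 AGAACA match), chr9:44981536-44981835 (+ strand, 2 CTTTGA matches), chr2:59484403-59484702 (+ strand, no match), chr8:107065595-107065894 (- strand, 1 AGAACA match) and chr5:147400440-147400739 (- strand, 1 CTTTGA match).
Cd8a: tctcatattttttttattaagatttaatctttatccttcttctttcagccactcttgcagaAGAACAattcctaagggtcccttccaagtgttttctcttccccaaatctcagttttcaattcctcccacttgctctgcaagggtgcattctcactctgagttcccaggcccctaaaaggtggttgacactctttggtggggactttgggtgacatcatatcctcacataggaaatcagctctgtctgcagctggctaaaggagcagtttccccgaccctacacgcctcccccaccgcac
Cd3d: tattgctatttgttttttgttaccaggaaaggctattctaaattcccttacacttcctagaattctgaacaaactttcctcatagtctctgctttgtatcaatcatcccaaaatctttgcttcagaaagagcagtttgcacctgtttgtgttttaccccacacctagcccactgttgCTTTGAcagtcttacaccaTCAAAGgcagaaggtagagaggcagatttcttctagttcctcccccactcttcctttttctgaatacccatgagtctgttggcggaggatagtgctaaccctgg
Dapl1: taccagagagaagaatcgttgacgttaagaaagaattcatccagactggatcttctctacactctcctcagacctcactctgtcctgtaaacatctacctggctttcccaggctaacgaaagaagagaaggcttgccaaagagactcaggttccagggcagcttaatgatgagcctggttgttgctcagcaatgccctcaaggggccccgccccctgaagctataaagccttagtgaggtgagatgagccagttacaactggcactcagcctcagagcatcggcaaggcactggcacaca
Tmed6: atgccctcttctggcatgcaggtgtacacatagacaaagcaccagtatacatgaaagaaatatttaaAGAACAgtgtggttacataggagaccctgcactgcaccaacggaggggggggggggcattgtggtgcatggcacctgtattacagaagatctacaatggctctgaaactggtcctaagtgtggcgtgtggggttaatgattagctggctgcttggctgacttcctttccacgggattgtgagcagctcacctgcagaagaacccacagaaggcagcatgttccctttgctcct
Flt3: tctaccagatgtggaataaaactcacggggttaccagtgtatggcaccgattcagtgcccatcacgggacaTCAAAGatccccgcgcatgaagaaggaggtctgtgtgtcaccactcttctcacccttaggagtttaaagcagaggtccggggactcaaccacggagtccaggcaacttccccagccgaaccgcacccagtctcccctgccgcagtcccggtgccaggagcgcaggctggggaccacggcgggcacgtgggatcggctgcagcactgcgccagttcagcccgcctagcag

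Other lymphocyte lists moved less than the T cell markers. Of 17 NK and cytotoxic genes, 3 were called lower and 1 higher, with a median of -0.26. Klrd1 (CD94, -0.74, SE 0.25, adjusted p = 0.0884), Nkg7, a granule protein (-0.67, SE 0.18, adjusted p = 0.0329), and Fasl, the ligand of the death receptor Fas (-0.62, SE 0.13, adjusted p = 0.0063), were lower. Klra8, an activating NK receptor, was higher (0.89, SE 0.27, adjusted p = 0.0571), at 4.20, 4.43, 4.44, 4.55 and 4.68 in XXF and 5.23, 5.08, 5.85, 5.46 and 5.15 in XXM mice. Some of these calls were lost when 1 mouse was left out. Klrd1 was not called without XXF F2, XXF F3, XXF F4, XXF F5, XXM 5, XXM 6, XXM 7 or XXM 8 (log2 differences of -0.66 to -0.76 and adjusted p of 0.125 to 0.182). Klra8 was not called without XXF F1, XXF F2, XXM 6 or XXM 7 (log2 differences of 0.77 to 0.89 and adjusted p of 0.104 to 0.159), and Fasl without XXF F5 or XXM 2 (log2 differences of -0.57 each time, under the fold threshold, and adjusted p of 0.0187 to 0.0219). Summed RPKM of the list was 1030, 1221, 1128, 1233 and 1307 and 1091, 939, 931, 922 and 887, with Ccl5 its most abundant gene. Cxcr6, a chemokine receptor of effector T and NK T cells, had the largest fall of the 20 chemokine genes tested, 3 lower and 1 higher in all. It was at 4.84, 5.27, 5.07, 4.73 and 4.93 in XXF and 3.64, 4.06, 3.03, 2.83 and 3.30 in XXM mice (-1.60, SE 0.25, adjusted p = 0.000624), with no overlap. Cxcl9, an interferon gamma induced chemokine (-1.0), and Ccr9, a homing receptor of gut T cells and plasmacytoid dendritic cells (-0.70), were lower too, whereas Ccl3, a macrophage inflammatory protein, was higher (0.84).

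Some B cell genes were higher in XX mice with testes. All 16 B cell markers had positive differences, with a median of 0.50, and 3 were called higher and 0 lower (12 higher and 0 lower at an unadjusted p under 0.05, and 3 higher with limma-voom). Pax5, the transcription factor that fixes B cell identity, was at 7.37, 8.02, 8.18, 7.65 and 7.75 in XXF and 9.05, 8.95, 8.97, 8.27 and 8.72 in XXM mice. Ebf1, its partner in early B cells, was at 5.58, 5.34, 5.26, 5.52 and 5.58 and 6.30, 6.41, 6.42, 6.04 and 6.10. XXM mice 7 and 8 had the smallest values of Pax5 among XXM mice, and still all XXM values were above all XXF values for both genes. Log2 differences were 1.0, SE 0.22, adjusted p = 0.0097 and 0.80, SE 0.18, adjusted p = 0.00982, and for Cd72, an inhibitory coreceptor, 0.59, SE 0.16, adjusted p = 0.0283, a call that was lost without XXF F1, XXF F3, XXF F4, XXM 5 or XXM 6 (log2 differences of 0.54 to 0.58, under the fold threshold, and adjusted p of 0.0628 to 0.0793). Tnfrsf13c, the receptor for the B cell survival factor BAFF, was higher as well (0.69, SE 0.20, adjusted p = 0.041), the 1 of 16 cytokine and survival factor genes that was called. The marker list summed to RPKM values of 4754, 4769, 4128, 4526 and 4414 in XXF and 6919, 7073, 6386, 6302 and 5801 in XXM mice, with Ly6d its most abundant gene and no marker at 0. The B cell sum was 1.44-fold higher between group means while the T cell sum was lower. RPKM is a share of reads, and the part of each sum in the other was not tested.

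All 10 tested genes of MHC class II presentation had positive differences (median 0.45), 1 of them called. H2-DMb1, which helps load peptide onto class II, was at 5.92, 6.20, 6.14, 6.13 and 6.16 in XXF and 6.96, 6.93, 6.97, 6.84 and 6.88 in XXM mice, tight in both groups and apart (0.81, SE 0.13, adjusted p = 0.000696). Of 13 germinal center genes, 3 were called lower and 0 higher (0 higher at an unadjusted p under 0.05 and with limma-voom), with a median of -0.34. These were Rgs13, a regulator of chemokine receptor signals (-1.01), Fas (-0.63) and S1pr2, which keeps B cells within germinal centers (-0.61). The call of Rgs13 was lost without XXF F2, XXM 6 or XXM 8 (log2 differences of -0.78 to -0.96 and adjusted p of 0.105 to 0.123) and that of Fas without XXF F2, XXM 7 or XXM 8 (log2 differences of -0.55 to -0.57, under the fold threshold, and adjusted p of 0.0518 to 0.0614). S1pr2 was not called without XXF F2, XXF F3, XXF F4, XXM 2, XXM 6, XXM 7 or XXM 8 (log2 differences of -0.47 to -0.63 and adjusted p of 0.111 to 0.185), and neither Fas nor S1pr2 was called with quantile normalization. Summed RPKM of the list went the other way in the mean, at 204, 172, 132, 176 and 156 in XXF and 127, 194, 207, 222 and 186 in XXM mice, overlapping, with Cxcr5 its most abundant gene. Of 20 plasma cell genes 0 were called (5 higher and 0 lower at an unadjusted p under 0.05, 0 with limma-voom), and the median was 0.25. Jchain, which joins IgM and IgA into polymers, was at 8.85, 10.13, 10.22, 8.76 and 9.40 in XXF and 9.82, 9.78, 9.31, 9.78 and 9.81 in XXM mice, overlapping.

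The antibody classes did not move as 1 group. Of 11 immunoglobulin constant genes tested, 4 were called higher and 1 lower, with a median of 0.54. Ighg3 (Entrez Gene 380795, chromosome 12), the constant region of IgG3, was at 7.41, 7.04, 8.72, 6.98 and 7.77 in XXF and at 10.78, 11.19, 11.40, 11.34 and 10.63 in XXM mice. Even XXF F3, the highest of its group, was well below each XXM mouse, and the difference was 3.48, SE 0.34, adjusted p = 4.82e-06. Ighg2b was at 8.88, 9.07, 8.63, 7.13 and 8.31 and 10.10, 10.12, 11.32, 10.83 and 10.34, with no overlap (2.14, SE 0.33, adjusted p = 0.000484). Ighg1 was at 6.66, 6.24, 5.82, 4.43 and 5.90 and 6.98, 6.92, 7.46, 7.51 and 6.43, where XXF F1 overlapped the lowest XXM mouse (1.25, SE 0.32, adjusted p = 0.0235). Ighg2c went down, from 7.82, 9.37, 8.56, 7.80 and 8.24 in XXF to 6.71, 7.35, 7.29, 6.21 and 7.83 in XXM mice, with XXM 8 inside the XXF range (-1.28, SE 0.38, adjusted p = 0.0507). The Ighg2c call was lost without XXF F2 or XXM 7 (log2 differences of -1.02 to -1.06 and adjusted p of 0.125 to 0.136). Iglc3, a lambda constant gene chosen for naming after its values were seen, was the other higher gene. Summed over the list, RPKM was 20992, 36187, 33736, 16541 and 23444 in XXF and 34494, 35638, 44732, 37964 and 33155 in XXM mice, and most of it was Igkc, at 11478, 23244, 22026, 9048 and 13237 and 22052, 18911, 29846, 22738 and 19588.

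Variable genes of the antibody chains are read here beside the 4.30% of all autosomal genes that were called. Of 107 heavy chain variable genes, 2 were called higher and 1 lower (median -0.21); 71 had negative differences, and at an unadjusted p under 0.05 there were 10 lower and 3 higher. Of 101 kappa genes 3 were called higher and 2 lower (median 0.06, 43 negative, 6 higher and 6 lower at an unadjusted p under 0.05), and of 3 lambda genes 0 (1 higher at an unadjusted p under 0.05, 0 with limma-voom). Ighv13-2 was at 5.51, 3.91, 3.92, 6.16 and 3.16 in XXF and at 9.15, 9.46, 10.22, 11.42 and 10.72 in XXM mice. XXF F1 and F4 stood above the other XXF mice, yet below every XXM mouse, and the difference was 5.66, SE 0.51, adjusted p = 1.97e-06. Igkv1-110 was at 8.15, 8.08, 7.86, 7.59 and 8.03 and 10.93, 10.43, 10.63, 11.82 and 10.91, with no overlap (3.0, SE 0.26, adjusted p = 1.28e-06). In the opposite direction Igkv5-39 was at 9.98, 8.93, 8.05, 8.23 and 8.87 in XXF and 6.14, 7.52, 7.79, 6.67 and 6.27 in XXM mice, also apart (-1.94, SE 0.40, adjusted p = 0.00619). Igkv8-28 was lower on average (-1.66, SE 0.42, adjusted p = 0.0229), with XXF F1 inside the XXM range. The remaining calls were each lost when any 1 of several mice was left out. Ighv5-9, with a difference of 2.44, was not called without XXF F1, XXF F2, XXF F4, XXF F5, XXM 2 or XXM 7 (log2 differences of 2.19 to 2.46 and adjusted p of 0.112 to 0.14), nor with limma-voom. Ighv1-9 (-1.55) was not called without XXF F2, XXF F3, XXM 2, XXM 5 or XXM 6 (log2 differences of -1.21 to -1.49 and adjusted p of 0.124 to 0.172), nor with limma-voom. Igkv1-117 (0.69) lost its call without XXF F1, XXF F3, XXF F4, XXM 7 or XXM 8 (log2 differences of 0.47 to 0.71 and adjusted p of 0.107 to 0.175), and Igkv2-137 (0.90) without XXF F1, XXF F2, XXF F3, XXF F5, XXM 2, XXM 6 or XXM 8 (log2 differences of 0.66 to 0.93 and adjusted p of 0.104 to 0.215). Close copies share reads here as well.

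Several dendritic cell genes were higher in XX mice with testes. Of 13 tested, 5 were called higher and 1, Ccr9, lower, with a median of 0.56. Siglech (Entrez Gene 233274, chromosome 7), a sialic acid binding receptor of plasmacytoid dendritic cells, was at 3.19, 2.85, 2.78, 3.45 and 3.07 in XXF and 4.53, 4.41, 4.39, 4.04 and 5.15 in XXM mice. Flt3 (Entrez Gene 14255, chromosome 5), the receptor of the growth factor on which dendritic cells depend, was at 2.75, 2.62, 2.63, 2.69 and 2.53 and 3.55, 3.57, 3.73, 3.85 and 3.86. For Siglech XXM 8 was the highest mouse, and for both genes the groups lay apart. Differences were 1.43, SE 0.18, adjusted p = 4.67e-05 for Siglech and 1.07, SE 0.13, adjusted p = 4.95e-05 for Flt3. Tcf4, the transcription factor that directs plasmacytoid cells, was at 4.69, 4.95, 4.98, 4.74 and 4.88 in XXF and 5.94, 5.90, 5.71, 5.47 and 5.59 in XXM mice (0.87, SE 0.11, adjusted p = 5.97e-05). Cd209a, a C-type lectin of conventional dendritic cells and monocytes, was at 3.18, 2.75, 2.81, 3.09 and 3.02 and 3.80, 3.84, 3.71, 4.05 and 3.90 (0.89, SE 0.14, adjusted p = 0.000494), and neither gene's groups overlapped. Clec9a, which senses dead cells on cross-presenting dendritic cells, was the remaining higher gene and was chosen for naming after its values were seen. The list summed to RPKM values of 1140, 1358, 1208, 1140 and 1087 in XXF and 2194, 1842, 1661, 1548 and 1450 in XXM mice, but most of each sum was Ly6d, a gene that also stands in the B cell list, at 877, 1109, 967, 890 and 848 and 1847, 1504, 1351, 1219 and 1088. Tcf4 and Flt3 are also made by B lineage cells and progenitors, and the part of these cells in the differences was not tested.

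**Figure D3:**
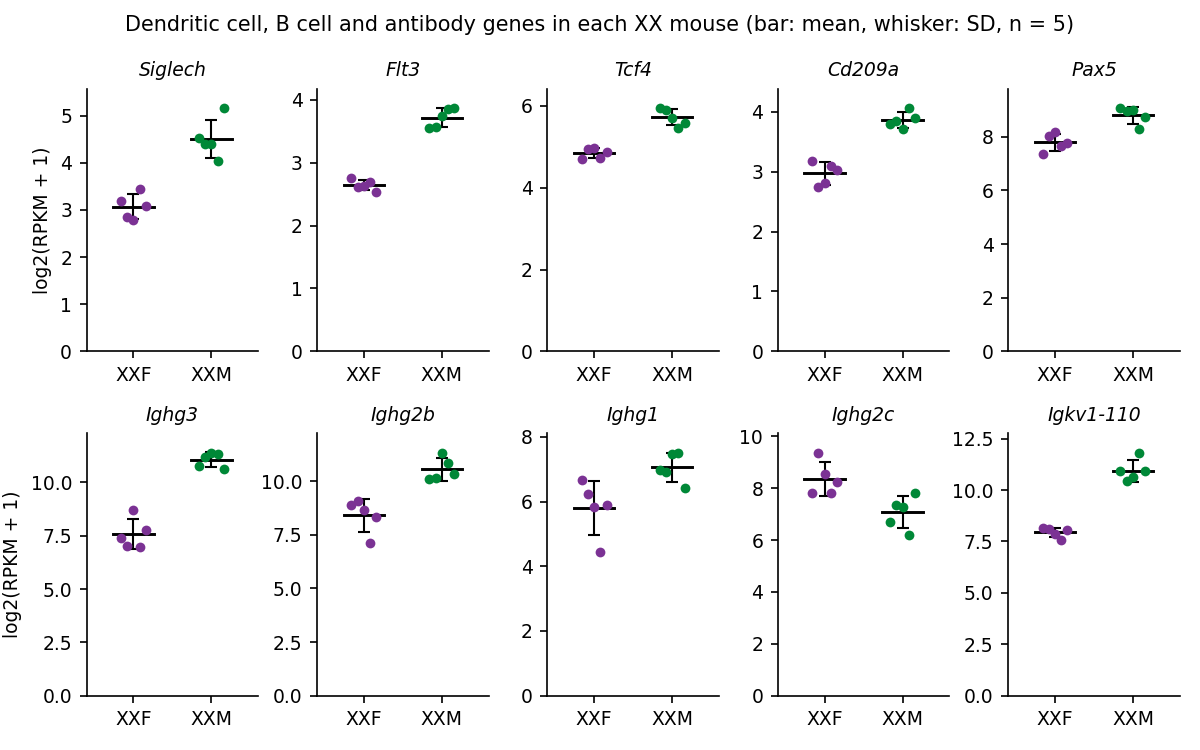
Points are mice, with log2(RPKM + 1) on the y axis for 4 dendritic cell genes, Pax5, 4 IgG constant genes and Igkv1-110 in 5 XXF and 5 XXM mice; bars and whiskers give mean and SD. XXM mice lie above XXF mice except in Ighg1, where 1 XXF mouse overlaps, and Ighg2c, where XXM mice are lower on average.

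Other genes with large rises lie outside the antibody genes. Tmed6, of the p24 family of cargo receptors between endoplasmic reticulum and Golgi, was at 0.57, 0.87, 0.91, 0.85 and 0.55 in XXF and 3.06, 2.22, 2.33, 2.97 and 2.35 in XXM mice. The lowest XXM mouse was far above the highest XXF mouse, a difference of 1.84, SE 0.17, adjusted p = 3.8e-06. Cd209d, a C-type lectin related to Cd209a, was at 1.21, 1.45, 1.89, 1.55 and 1.13 and 3.55, 2.77, 2.26, 3.09 and 3.18, also apart (1.52, SE 0.21, adjusted p = 0.000207). Clec10a, a lectin that binds galactose, was higher by 1.11 (SE 0.16, adjusted p = 0.00024) and Cd300c, an activating receptor of myeloid cells, by 1.18 (SE 0.18, adjusted p = 0.000382). Cd163l1, a scavenger receptor, was higher by 1.09 (SE 0.29, adjusted p = 0.0268). Angptl1, a secreted angiopoietin-like protein, was at 1.12, 2.53, 2.47, 1.98 and 2.15 in XXF and 3.32, 3.70, 3.97, 2.56 and 3.23 in XXM mice, with XXM 7 just above XXF F2 (1.31, SE 0.29, adjusted p = 0.0093). Olfr164, an olfactory receptor gene, was higher by 1.28 and Gm2848, a predicted gene, by 1.15. All of these kept their calls when any 1 mouse was left out.

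Several interferon stimulated genes were lower in XX mice with testes. Of 20, 9 were called lower and 0 higher (14 lower and 0 higher at an unadjusted p under 0.05, 9 lower with limma-voom), with a median of -0.58. Ifit1, which binds viral RNA, was at 4.02, 3.67, 3.88, 3.77 and 3.88 in XXF and 3.11, 3.21, 2.98, 2.60 and 2.98 in XXM mice, with no overlap (-0.87, SE 0.18, adjusted p = 0.00525). Isg15, a ubiquitin-like protein, had the largest difference, at 6.10, 6.47, 6.96, 6.50 and 6.30 against 5.67, 5.40, 5.23, 5.21 and 5.92, where XXM 8 came nearest to the XXF mice. Its difference was -0.98, SE 0.32, adjusted p = 0.08, but the call was lost without XXF F2, XXF F3, XXF F4, XXF F5, XXM 5, XXM 6 or XXM 7 (log2 differences of -0.86 to -1.02 and adjusted p of 0.111 to 0.177). Rtp4, a chaperone of membrane receptors, was also lower (-0.81, SE 0.21, adjusted p = 0.0256), as was Oasl2, of the oligoadenylate synthetase family (-0.80, SE 0.24, adjusted p = 0.0584), the latter call lost without XXF F1, XXF F4, XXM 2 or XXM 5 (log2 differences of -0.63 to -0.78 and adjusted p of 0.113 to 0.15). Summed RPKM was 637, 558, 652, 605 and 576 in XXF and 322, 362, 366, 337 and 477 in XXM mice, the most abundant gene being Rsad2, and XXM 8 was the highest XXM mouse. Many of these genes are expressed in several spleen cell types, T cells included, and the part of cell numbers was not tested.

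Of 14 MHC class I genes, 2 were called lower and 0 higher (3 lower and 0 higher at an unadjusted p under 0.05, 2 lower with limma-voom), with a median of -0.24. H2-Q7, a nonclassical class I molecule, was at 7.44, 7.68, 7.42, 7.50 and 7.55 in XXF and 6.71, 6.90, 6.89, 6.50 and 6.73 in XXM mice, with no overlap (-0.77, SE 0.19, adjusted p = 0.0202). Nlrc5, the transactivator of class I genes, was lower (-0.74, SE 0.22, adjusted p = 0.0466), and that call was lost without XXF F1 or XXF F4 (log2 differences of -0.66 to -0.70 and adjusted p of 0.104 to 0.12). Macrophage genes leaned the same way: 15 of 16 had negative differences (median -0.57), and 1 was called. That gene was C1qb, a subunit of the complement starter C1q, at 6.02, 6.30, 6.34, 6.09 and 5.93 in XXF and 5.48, 4.80, 4.59, 5.46 and 5.08 in XXM mice (-1.05, SE 0.31, adjusted p = 0.0493). Its call was lost without XXF F2, XXM 5 or XXM 6 (log2 differences of -0.93 to -1.01 and adjusted p of 0.102 to 0.138). The macrophage list summed to 1114, 1240, 1246, 1231 and 1022 RPKM in XXF and 880, 558, 753, 1262 and 946 in XXM mice, where XXM 7 lay above every XXF mouse, with Hmox1 the most abundant. Of 14 monocyte genes 1 was called, Cd300e (-0.96), a monocyte activating receptor whose call was lost with limma-voom and without XXF F1, XXF F2, XXF F4, XXF F5, XXM 2, XXM 5 or XXM 6 (log2 differences of -0.76 to -0.99 and adjusted p of 0.106 to 0.163). The median of the monocyte list was -0.06.

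Several lists had no called member. The 16 erythroid genes all had negative differences (median -0.78), with 0 called (1 lower at an unadjusted p under 0.05, 0 with limma-voom). Hbb-bs, the adult beta globin, was at 13.10, 13.77, 14.21, 13.99 and 13.49 in XXF and 12.87, 12.59, 11.92, 12.20 and 13.17 in XXM mice, with overlap (-1.16, SE 0.52, adjusted p = 0.214 by limma). That SE draws on all 4 groups, with SDs of 0.43 in XXF, 0.50 in XXM, 0.63 in XYF and 1.35 in XYM mice. The exact permutation test, which uses the XX mice alone, gave p = 0.0159, unadjusted. Erythroid RPKM summed to 13193, 20016, 29231, 23048 and 16589 in XXF and 12510, 9782, 7933, 7554 and 15021 in XXM mice. The 20 proliferation genes were also all negative (median -0.28, 0 called, 0 at an unadjusted p under 0.05, 0 with limma-voom). Neutrophil genes were positive in 12 of 16 (median 0.50), again with 0 called by limma or limma-voom and 0 at an unadjusted p under 0.05. Here too the XY mice share in the estimate of the spread. The summed neutrophil RPKM had an SD of 625 in XXF and 1311 in XXM mice, but ran from 3531 to 63829 in XYM mice. S100a9, a calcium-binding protein of neutrophil granules, was at 10.85, 10.71, 11.18, 11.11 and 10.85 in XXF and 11.54, 11.32, 11.51, 11.02 and 10.87 in XXM mice, overlapping. Among 14 steroid receptor and glucocorticoid response genes, 0 were called (1 higher and 2 lower at an unadjusted p under 0.05, 0 with limma-voom), with a median of -0.05, and Esr2, Nr3c2 and Pgr, the genes of an estrogen, the mineralocorticoid and the progesterone receptor, were too weak to test. Of 76 ribosomal protein genes, 66 were negative and 0 were called (1 higher and 1 lower at an unadjusted p under 0.05, 0 with limma-voom), with a median of -0.19.

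**Figure D4:**
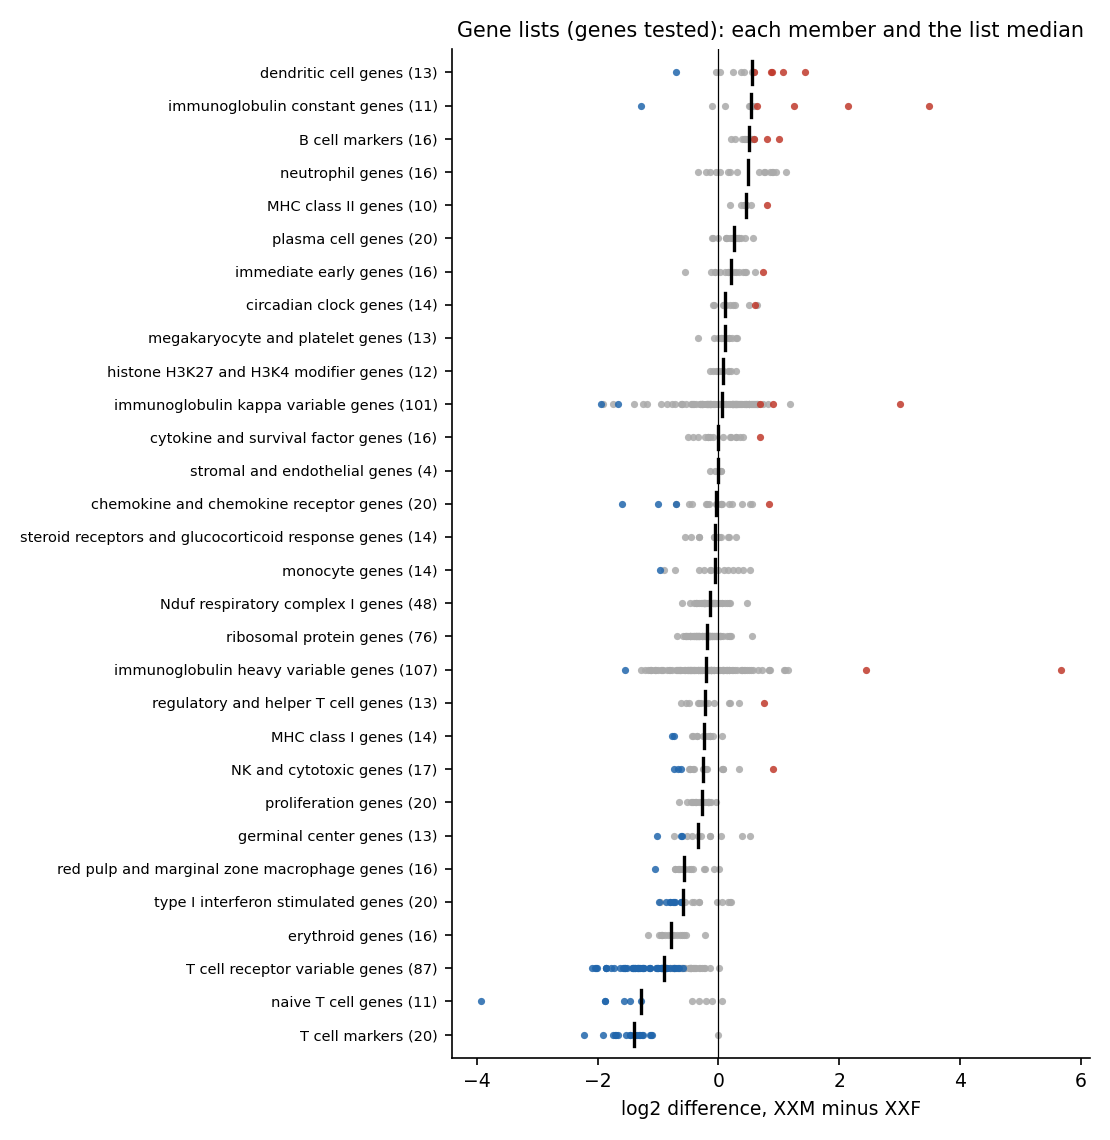
Each line is a gene list with the number of its genes tested, points are genes, the x axis is the log2 difference XXM minus XXF, and black bars are list medians; red and blue points are called higher and lower. The T cell marker, naive T cell and T cell receptor variable lists lie farthest to the left (medians -1.40, -1.28 and -0.91), and dendritic cell, immunoglobulin constant, B cell and neutrophil lists farthest to the right (0.56, 0.54, 0.50 and 0.50).

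The same gonadal contrast in XY mice, which compares other mice but has the same estimate of the spread, had more calls. Of the 12796 autosomal genes, 998 (7.80%) were called higher and 1074 (8.39%) lower in XYM than in XYF mice, 2072 (16.2%) together. Of the 395 genes lower in XX mice, 150 were also called lower in XY mice, 38.0% of the XX list and 14% of the XY list. Of the 155 higher genes, 59 were called higher in XY mice, 38.1% of the first list and 5.91% of the second, and 0 genes of either list were called in the opposite direction. Differences had the same sign in XY mice for 350 of the 395 and 130 of the 155. Dapl1 differed by -3.64 in XY mice, Cd8b1 by -1.16 and Ighv13-2 by 7.45. T cell markers were called lower in 13 of 20 (median -0.77), and T cell receptor variable genes in 15 of 87, with 1 higher (median -0.23). In limma's test of the difference between the contrasts, 1 of the 20 markers and 0 of the 87 variable genes were called. At an unadjusted p under 0.05 in that test there were 9 and 38, beside 2690 of the 12796 autosomal genes. Limma-voom called 1 and 0. Erythroid genes, with 0 calls in XX mice, were called lower in 16 of 16 in XY mice (median -2.13), but 0 of the 16 passed limma's test of the difference between the contrasts (3 at an unadjusted p under 0.05, 0 with limma-voom). B cell markers were called higher in 12 of 16. Whether a list differs between the contrasts was tested gene by gene only, as follows. Without XYF F6 the XY counts were 635 higher and 668 lower.

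**Figure D5:**
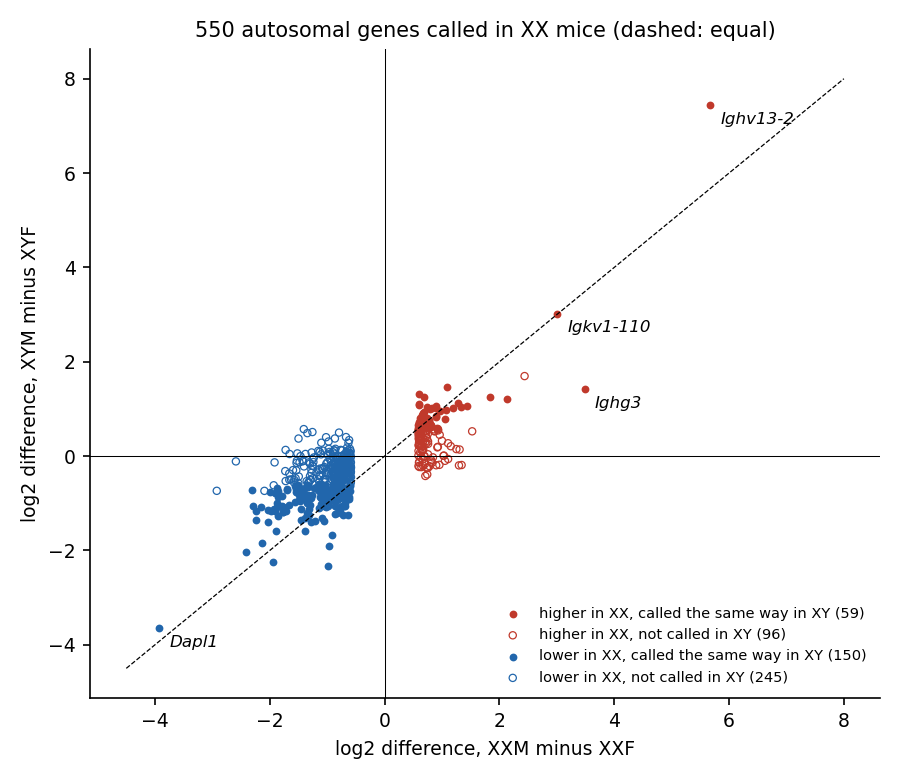
Each point is 1 of the 550 autosomal genes called in XX mice, with the log2 difference XXM minus XXF on the x axis and XYM minus XYF on the y axis; filled points are called the same way in XY mice (59 higher, 150 lower). Dapl1 and Igkv1-110 lie near the dashed line of equality, Ighv13-2 above it and Ighg3 below it.

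The XX difference minus the XY difference, tested in the same fit, was called for 10 autosomal genes (0.0781%), 7 lower (0.0547%) and 3 higher (0.0234%). Cd28, the costimulatory receptor of T cells, was lower in XXM than in XXF mice, at 4.45, 4.30, 4.26, 4.30 and 4.68 against 2.89, 3.21, 3.15, 3.04 and 3.34. In XY mice it was at 3.87, 3.87, 4.19 and 3.41 with ovaries and 4.21, 3.92, 3.87, 4.26 and 3.31 with testes, where the groups overlapped. The difference of differences was -1.35, SE 0.24, adjusted p = 0.0618. F2rl1, a receptor that proteases activate, had differences of -1.48 in XX and -0.13 in XY mice (-1.35, SE 0.23, adjusted p = 0.0528), and Ubash3a, which damps T cell receptor signals, of -1.24 and -0.13 (-1.12, SE 0.18, adjusted p = 0.0528). Nr4a3 and Nr4a1 encode related nuclear receptors that antigen receptor signals induce. Nr4a3 was at 1.37, 0.87, 0.73, 1.17 and 1.18 in XXF and 0.34, 0.26, 0.37, 0.76 and 0.84 in XXM mice, but at 0.36, 0.49, 0.59 and 0.26 in XYF and 1.18, 1.58, 1.01, 1.68 and 0.66 in XYM mice (-1.35, SE 0.26, adjusted p = 0.0917). Nr4a1 had the opposite sign (0.90), as had Nxpe5 (1.04) and 5430437J10Rik (1.10). Fasl (-0.96), the ubiquitin ligase Znrf2 (-0.95) and the membrane tether Esyt2 (-0.83) complete the 10; Znrf2 and Esyt2 fall outside the rule for naming and were chosen after their values were seen. This count rests on single mice: it was 0 without XXF F1, XXF F2, XXF F5, XYF F6, XYM 12 or XYM 16, 1 without XXM 6, 3 without XXF F4 or XXM 5, 4 without XYM 13, 5 without XXM 2, 6 without XYF F9, 705 without XYM 15, 712 without XYF F8, 1095 without XXF F3 and 1559 without XYM 9. At an unadjusted p under 0.05 there were 2690 genes, limma-voom called 4, and Ubash3a, called in 13 of 19 fits that leave 1 mouse out, was the most frequent of the 10.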

How the data were processed

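RNA-seq of splenocytes from 19 mice was taken from the table that the authors deposited, with values described as log2 RPKM. Per the labels, alignment was to mm10 with Subread and counting with featureCounts; no version, strand setting or rule for multiple matches is stated. The methods name a KAPA stranded kit and the sample records a NEBNext Ultra kit. The deposited values equal log2(RPKM + 1) with 0.0001 added, and whole reads recovered from their steps lay within 0.05 of a whole number for all 21317 genes with a read. Tested on simulated data, the recovery returned all read numbers of 99.8% of 2436 genes. All value columns were mapped to mice (0 left over). Symbols and positions are from RefSeq on GRCm38, which held 25275 of 27179 genes.

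Group means of the 4 groups were fitted with limma 3.58.1 (R 4.3.3), with a spread that follows mean expression, to the 13682 genes of all chromosomes that passed the filter, and adjusted p values over them. Calls need an adjusted p under 0.1 and a difference over 1.5-fold, the thresholds of the study, which used EdgeR (not run here). Single genes were also tested by exact two-sided permutation of 5 against 5 mice. The labels give no pairs of mice between groups, so none were formed. Python 3.11.15 with numpy 2.4.6, pandas 2.3.3 and matplotlib 3.10.9 made tables and figures.

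The members and the 33 gene lists were chosen with earlier results of these data known. Lists are described by counts and medians, with no set test. Named are the 12 called genes with the largest differences each way among those whose groups lie apart (5 each way for variable genes), up to 4 called members of each list or, where none is called, its 2 most expressed, and up to 5 genes each way for the difference between XX and XY mice; others are marked in the text. The alternatives tried were a pseudocount of 0.5 or 0.1, a filter at an RPKM of 1 or none, the compared groups alone, median ratio rescaling, quantile normalization, a spread without trend, array weights, limma-voom on recovered reads, an adjusted p of 0.05, no fold threshold, and each mouse left out in turn. Reads were not realigned. Differences of log2(RPKM + 1) understate changes of weak genes, and reads from PCR are not independent molecules.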

Additional observations from a re-analysis of the deposited data

Results flagged for a closer look

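In each group of 5 mice, the highest or lowest mouse was compared with its nearest neighbour, for the named genes and the summed RPKM of the lists, 280 groups in all. A mouse stood apart, its gap being large against the range of its group, in 17 of them, and chance gives about 1 in 20. As log2(RPKM + 1), XXF F1 was the lowest XXF mouse for Tdrp (3.88), H2-DMb1 (5.92) and Ccl3 (2.92), and XXF F3 for Tnfrsf13c (6.33). Among XXM mice, mouse 2 was lowest for Tcf7 (5.22) and mouse 6 for Jchain (9.31). Mouse 8 was the highest XXM mouse for Cd300c (3.70) and Clec10a (3.71), mouse 7 for Igkv1-117 (9.97) and mouse 5 for Iglv1 (11.31). In summed RPKM, XXF F5 was highest for naive T cell genes (1493) and pancreas genes (3.76). XXM 2 was highest for NK and cytotoxic genes (1091) and fat cell genes (9.81) and lowest for circadian clock genes (87.0), XXM 8 was highest for interferon stimulated genes (477), and XXM 5 for lambda variable genes (2923).

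The gonadal difference differed between XX and XY mice by limma's test of the difference itself for 10 genes, with XX minus XY log2 values of -1.35 for Cd28, F2rl1 and Nr4a3, -1.12 for Ubash3a, -0.96 for Fasl, -0.95 for Znrf2, -0.83 for Esyt2, 0.90 for Nr4a1, 1.04 for Nxpe5 and 1.10 for 5430437J10Rik.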

How the results depend on the processing

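Of the 77 called genes that the naming rule takes, 59 were called under every alternative and with each XX mouse left out in turn, and none of the 77 changed direction. With 1 mouse left out, the genes called in XX mice numbered 118 to 173 higher and 347 to 402 lower, and those in XY mice 635 to 1372 higher and 668 to 1368 lower, the lowest pair without XYF F6. Higher genes in XX mice numbered 241 with a pseudocount of 0.1, 247 with limma-voom and 606 without the fold threshold, where lower genes numbered 646 and XY genes 3044 higher and 2227 lower. Dropping a fold threshold admits smaller differences by construction, and the cause of the other shifts was not tested. Genes called for XX against XY numbered 6 with a pseudocount of 0.1 or no filter, 5 with an RPKM filter of 1, 4 with limma-voom, 1734 with array weights, 0 at an adjusted p of 0.05 (2690 at an unadjusted p under 0.05), and 0 to 1559 with 1 mouse left out, so that this count is not stable. Without a filter, 6 named genes were no longer called (Igkv1-117, S1pr2, Klrd1, Isg15, Ighv1-9 and Igkv2-137), with quantile normalization 3 (Fas, S1pr2 and Fasl), with limma-voom 3 (Ighv5-9, Cd300e and Ighv1-9), with array weights 1 (S1pr2) and 11 at an adjusted p of 0.05. The median over all autosomal genes moved by little under each rescaling (-0.01 as reported, 0.02 with quantile normalization), and the sign of each list median held, except for the cytokine, stromal and pancreas lists, whose medians are near 0. A difference in a gene with few reads, such as a T cell receptor variable gene, is limited by depth.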

Other observations

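Few genes were called in the remaining lists. Of 16 immediate early genes 1 was called higher, Zfp36, which speeds decay of messenger RNA, at 7.50, 8.15, 8.24, 8.01 and 8.18 in XXF and 8.88, 8.76, 8.82, 8.62 and 8.68 in XXM mice, with no overlap (log2 difference 0.74, SE 0.13, adjusted p = 0.00235, limma). The list's median was 0.21. Of 14 circadian clock genes 1 was called higher, Bhlhe40, a transcriptional repressor (0.61, SE 0.14, adjusted p = 0.0101), and that call was lost without XXF F3, XXF F4, XXM 5 or XXM 6 (log2 differences of 0.57 to 0.58, under the fold threshold, and adjusted p of 0.0292 to 0.034). Its list had a median of 0.11, and the chemokine and the cytokine lists had medians of -0.04 and -0.0046. No gene was called by limma among 12 modifiers of histone H3 (median 0.07), 13 platelet genes (median 0.10), 48 Nduf genes (median -0.14), 4 stromal genes (median -0.01), 2 fat cell genes (median -0.15) and 1 pancreas gene (-0.05), nor by limma-voom. At an unadjusted p under 0.05 they held 1, 2, 2, 0, 0 and 0 genes. The lambda variable genes had a median of 0.46.

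Ribosomal RNA that remained in the libraries, read on Rn45s, took 1.16, 0.916, 3.0, 2.37 and 1.10% of reads in XXF mice and 2.63, 1.17, 0.475, 0.821 and 0.643% in XXM mice. Immunoglobulin genes took 1.98, 2.81, 2.54, 1.48 and 2.01% in XXF and 2.37, 2.78, 3.04, 3.17 and 2.77% in XXM mice. Of all autosomal genes tested, 88.8% encode proteins and 3.7% are long noncoding RNAs. Among the 395 lower genes these shares were 72.4% and 3.54%, and among the 155 higher genes 77.4% and 9.03%. Outside the T cell receptor genes, the share of genes called lower ran from 1.44% on chromosome 16 to 3.75% on chromosome 13.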
